A study of Homo sapiens with 6 samples.

Results

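The genes described here are p53 and 32 genes that it is known to switch on, or that act directly on it, in murine BaF3-T315I cells. The members were taken by exact gene symbol from a list of 33, which was chosen with earlier results of these data known. The deposited table of 22413 genes held 31 of them, while Pmaip1 and Perp were not analysed here. BaF3 is an interleukin-3-dependent mouse line of the early B lineage, and the BaF3-T315I line was stably transfected with BCR-ABL bearing the T315I mutation. All 6 samples, controls included, carry this transgene, and whether the line is 1 clone was not stated. The 3 control samples are labelled only as control, with no time and no vehicle named. The other 3 samples were exposed for 48 h to 1.1 µM of I13, an inhibitor of histone deacetylases. The labels name the organism as human, but the paper calls the cells murine and every gene identifier is of mouse, so the values were read as mouse genes. A general statement of the paper speaks of independent experiments for its results, but no source says of these libraries that the replicates came from separate cultures, so the p-values measure the spread between these samples, which may be technical.

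p53, encoded by Trp53, is a transcription factor that is held at a low protein level by the ubiquitin ligase Mdm2 and is stabilised when DNA is damaged or a cell is otherwise stressed. It then turns on genes that halt the cell cycle, repair DNA, restrain growth signalling or start apoptosis, and it also turns on Mdm2, which closes a negative feedback loop. p53 is controlled mainly at the protein level, so the mRNA of Trp53 does not measure its activity, and many of its target genes also answer to other transcription factors. In BCR-ABL-driven leukemia cells the pathway is studied as a brake on proliferation.

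The libraries held 16762119 to 17722950 fragments each, so depth differed little between the groups. Values are FPKM, the fragments on a gene scaled to its length and to the size of the library, which allows levels to be set side by side between genes. The limma comparison used log2(FPKM + 0.1) of the 12163 genes with a mean of at least 0.5 FPKM, and the pseudocount makes the fold changes of low genes too small. Calls required 0.58 or more on the log2 scale in either direction, with an adjusted p below 0.05 from the whole table. Of the markers of the B lineage, Cd79a ranged from 14.1 to 27.5 FPKM, whereas Vpreb1, Igll1, Pax5 and Ebf1 were at or near 0 in all samples, with at most 0.107 FPKM. The 10 listed markers of the line, out of 12, summed to 472 to 929 FPKM in the controls and to 951 to 1699.5 FPKM after I13. Most of this sum was Csf2rb and Csf2rb2, the signalling subunits of the interleukin-3 receptor. These rose with adjusted p-values of 0.0313 and 0.0312 from limma with the replicate block, and of 0.220 and 0.165 without it. The groups overlapped in Csf2rb, Cd79a, Cd79b and Il3ra. In Csf2rb2 and in Ptprc, a further marker of the line, every I13 sample was above every control. The interleukin-3 receptor subunit Il3ra was listed at 9.07 to 18.2 FPKM. Of 16 markers of T cells, macrophages, erythroid cells, fibroblasts and epithelium, 10 were listed and 3 passed the filter, namely Adgre1, Cd68 and Hba-a1. Their list summed to 22.1 to 45.7 FPKM in the controls and 53.1 to 87.7 FPKM after I13, mostly from Adgre1. All 3 had a higher mean after I13, and the groups of Adgre1 and Hba-a1 did not overlap. By limma with the replicate block the adjusted p-values of Adgre1, Hba-a1 and Cd68 were 0.0308, 0.0384 and 0.158. Without the block they were 0.180, 0.116 and 0.404. Hba-a1 had 3 to 81 fragments a sample. Csf1r, another macrophage marker, was at most 0.070 FPKM. The part of these genes in the results was not tested. In bulk RNA a change in the number of cells of a type and a change in RNA per cell cannot be told apart.

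By limma without a block no member passed the adjusted test of I13 against control, so the members are described at an unadjusted p. Trp53inp1, Btg2, Fas, Mdm2, Rrm2b, Ccng1 and Zmat3 were 1.27- to 2.43-fold higher by mean FPKM with an unadjusted p below 0.05. Trp53, Rchy1 and Tnfrsf10b were lower, at 0.753 to 0.791 of the control mean. The other 20 members tested, among them the apoptotic gene Bbc3 and the repair genes Ddb2 and Xpc, lay between 0.638 and 1.25 of the control mean without reaching that p. Plk2, a kinase that acts in centriole duplication, was not tested, with 1 fragment in I13 replicate 3 and 0 in the other samples.

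None of the 30 members tested was called by limma, where the called genes made up 0.0411% of all genes tested, and the lowest adjusted p among the members was 0.0989. At an unadjusted p below 0.05, 7 members (23.3%) were higher, against 7.79% of all genes tested, and 3 (10%) were lower, against 10.8%. The share of lower members was thus close to that of all genes. The median log2 fold change was 0.15 over the members and -0.01 over all genes tested, and 21 of the 30 members had a positive value, against 49.2% of all genes tested. In 8 members every I13 sample was above every control, against 9.82% of all genes tested, and in 3 every I13 sample was below, against 15.4%. By the replicate numbers of the labels the samples form 3 pairs, and 10 members were higher in all 3 pairs, against 24.1% of genes, and 6 were lower in all 3, against 27.3%. With the replicate number as a block in limma, 2 members were called, Mdm2 and Fas, against 1.89% of all genes tested, and the same 2 had an adjusted p below 0.05, against 2.99%. With voom on the fragments recovered from the FPKM and the block, 5 members were called, against 4.14% of genes, namely Mdm2, Fas, Trp53inp1, Rrm2b and Btg2. In that fit 8 members had an adjusted p below 0.05, against 12.4% of genes, the further ones being Trp53, Rchy1 and Ccng1. When the blocked fit was run without the pair of replicate 1, Mdm2 was called and Fas was not, and without the pair of replicate 2 or of replicate 3 no member was called.

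**Figure D1:**
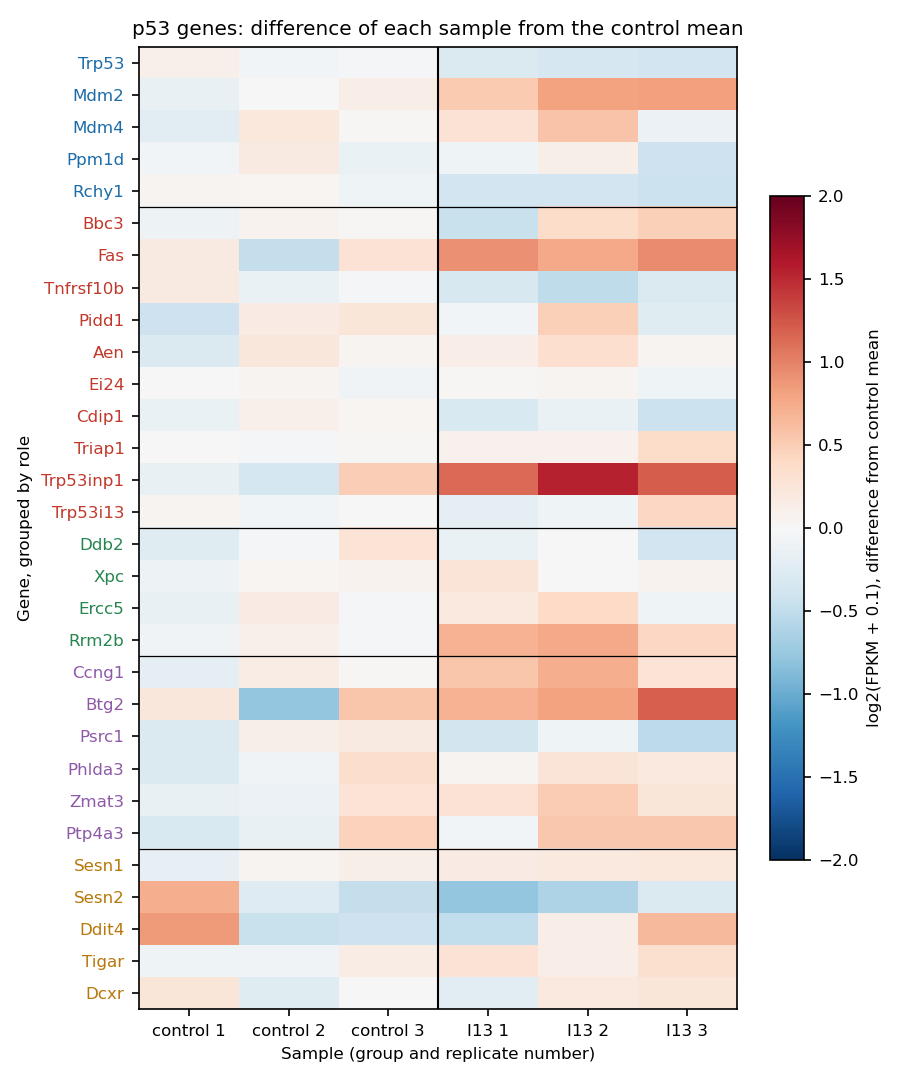
Each cell shows the log2(FPKM + 0.1) of 1 of the 30 members in 1 sample minus the mean of that gene over the 3 controls, with red above and blue below and genes grouped by role. Mdm2, Fas, Trp53inp1, Rrm2b and Ccng1 are red in all 3 I13 samples and Trp53 and Rchy1 are blue in all 3, while Sesn2 and Ddit4 stand out in control replicate 1.

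The first group holds p53 and the proteins that act on it. Trp53 (ENSMUSG00000059552) was among the most abundant members, with 79.1, 70.4 and 71.4 FPKM in control replicates 1, 2 and 3 and 60.2, 58.1 and 56.4 FPKM in the I13 replicates. Every I13 sample lay below every control. The controls averaged 73.6 ± 4.75 and the I13 samples 58.3 ± 1.89 FPKM (SD, n = 3 each). The difference was -0.34 ± 0.08 (SE) on the log2 scale, with an unadjusted p of 0.00518 and an adjusted p of 0.127 by limma. Wrap53, which overlaps Trp53 on the opposite strand, was listed at 9.94 ± 0.575 and 9.74 ± 0.465 FPKM (SD, n = 3 each), and the strand setting of the counting was not stated.

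Mdm2 (ENSMUSG00000020184), the ligase that marks p53 for degradation and is itself a p53 target, was listed at 12.9, 14.4 and 15.8 FPKM in the controls and at 20.6, 25.0 and 25.4 FPKM after I13. The groups did not overlap, and the 3 pairs differed by 0.67, 0.79 and 0.69 on the log2 scale. The log2 fold change of 0.72 had a standard error of 0.12 and an adjusted p of 0.0989 from limma, and with the replicate block Mdm2 rose with a standard error of 0.07 and an adjusted p of 0.0322. The ratio of Mdm2 FPKM to Trp53 FPKM was 0.163, 0.204 and 0.221 in the controls and 0.342, 0.430 and 0.450 after I13. This ratio averaged 0.196 ± 0.0298 and 0.407 ± 0.0575 (SD, n = 3 each). It is given as a description, without a p-value, because it was formed after both genes had been seen to separate the groups in opposite directions.

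The remaining genes of this group did not move together. Rchy1, another ubiquitin ligase for p53, was listed at 6.27, 6.24 and 5.70 FPKM in the controls and at 4.63, 4.6 and 4.47 FPKM after I13. Its groups did not overlap and the I13 values were tightly spaced, with a difference of -0.40 ± 0.10 (SE) on the log2 scale and an adjusted p of 0.123 by limma. Mdm4, a relative of Mdm2 that binds and restrains p53, was listed at 12.0, 16.3 and 14.3 FPKM in the controls and at 17.3, 21 and 13 FPKM after I13. The groups overlapped, since I13 replicate 3 was below 2 of the 3 controls, and the log2 fold change of 0.25 had a 95% interval from -0.20 to 0.70. Ppm1d, the phosphatase that switches off p53 signalling, averaged 8.01 ± 0.955 FPKM in the controls and 7.39 ± 1.38 FPKM after I13 (SD, n = 3 each), with an interval from -0.51 to 0.26 on the log2 scale.

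**Figure D2:**
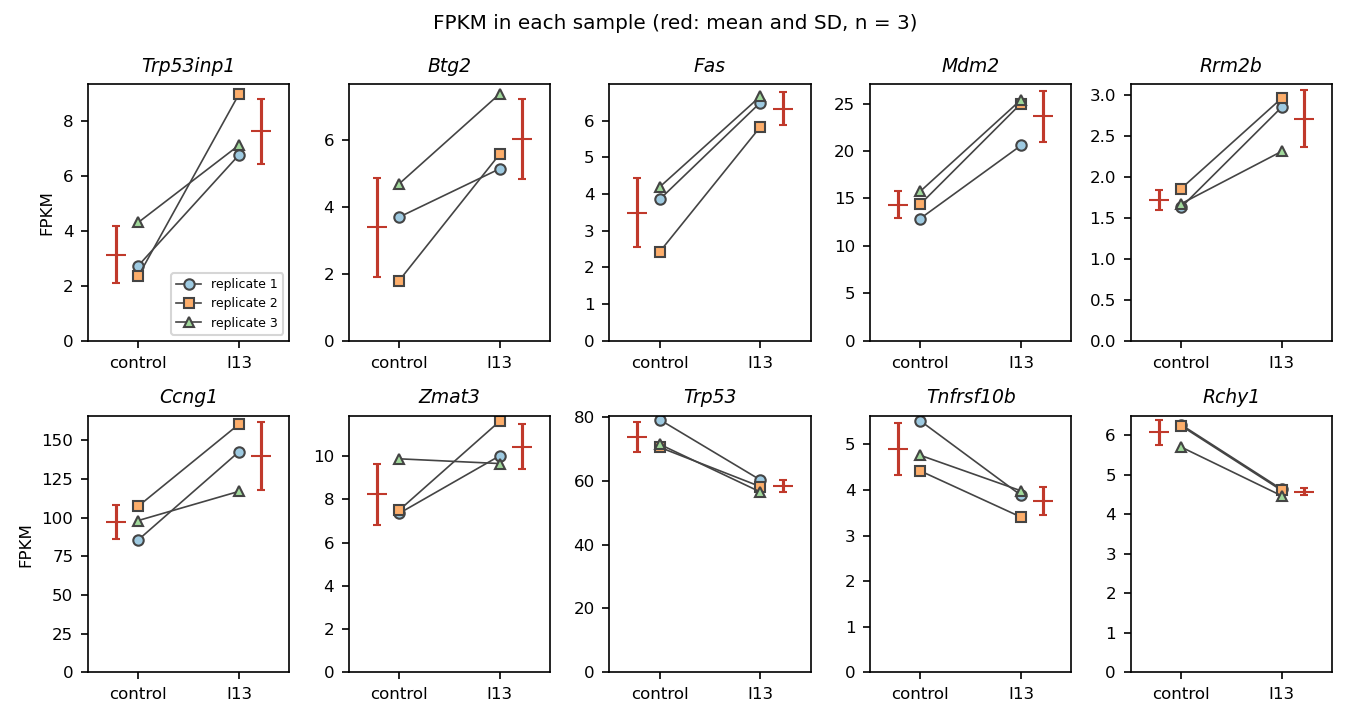
The FPKM of the 10 members with an unadjusted p below 0.05 is shown for each sample on axes that start at 0, with lines joining samples of the same replicate number and red bars for the mean and SD of 3 samples. Zmat3 is the gene of the 10 in which a pair ran against the others, with 9.87 FPKM in control replicate 3 and 9.65 FPKM in I13 replicate 3.

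Among the genes of apoptosis, the death receptor genes went in opposite directions. Fas (ENSMUSG00000024778), the receptor for Fas ligand, was listed at 3.85, 2.42 and 4.19 FPKM in the controls and at 6.49, 5.83 and 6.66 FPKM after I13, from 77 to 210 fragments a sample. All I13 values were above all controls. The difference was 0.88 ± 0.21 (SE) on the log2 scale, with an adjusted p of 0.116 by limma, and under the replicate block Fas rose with an adjusted p of 0.0472. Without control replicate 2, the lowest sample, the log2 fold change of Fas was 0.64. Tnfrsf10b, the mouse receptor for the death ligand TRAIL, was listed at 5.52, 4.42 and 4.76 FPKM in the controls and at 3.88, 3.41 and 3.98 FPKM after I13. The groups did not overlap, and differed by -0.37 ± 0.13 (SE) on the log2 scale, with an adjusted p of 0.203 by limma.

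Trp53inp1 (ENSMUSG00000028211), which encodes a stress protein that promotes p53 phosphorylation and also takes part in autophagy, had the highest log2 fold change of the members. It was listed at 2.745, 2.36 and 4.32 FPKM in the controls and at 6.78, 9.0 and 7.14 FPKM after I13. The lowest I13 sample was above the highest control, although control replicate 3 stood above the other controls and the pairs differed by 1.27, 1.88 and 0.71 on the log2 scale. The mean difference was 1.29 ± 0.23 (SE), with an adjusted p of 0.0989 by limma and of 0.0503 under the replicate block. It ran from 1.12 to 1.54 when 1 sample was left out.

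Most of the other genes of apoptosis had overlapping groups. Bbc3, which encodes the BH3-only protein PUMA, was listed at 7.54, 8.49 and 8.18 FPKM in the controls and at 5.88, 10.4 and 11.3 FPKM after I13. I13 replicate 1 was below every control and the other I13 samples were above every control, so the spread after I13 (SD 2.90) was wider than that of the controls (SD 0.482), and the interval of the log2 fold change ran from -0.42 to 0.69. Triap1, an inhibitor of apoptosome formation, averaged 23.2 ± 0.502 and 26.5 ± 3.19 FPKM (SD, n = 3 each), without overlap but with an interval from -0.07 to 0.43. Aen, an exonuclease that acts in apoptosis, and Pidd1, the scaffold of the PIDDosome, had log2 fold changes of 0.18 and 0.06, with overlapping groups. Ei24, an endoplasmic reticulum protein, was the most even member, with 21.2 ± 0.917 and 21.2 ± 1.04 FPKM (SD, n = 3 each) and an interval from -0.21 to 0.20. Trp53i13 had a log2 fold change of 0.05, and Cdip1, a proapoptotic target of p53, one of -0.29 (unadjusted p = 0.0607, adjusted p = 0.288 from limma), lower in all 3 pairs.

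Of the genes of DNA repair and nucleotide supply, Rrm2b separated the groups. Rrm2b encodes the p53-inducible small subunit of ribonucleotide reductase, which supplies deoxynucleotides outside S phase. It was listed at 1.63, 1.86 and 1.675 FPKM in the controls and at 2.86, 2.97 and 2.32 FPKM after I13, from 186 to 324 fragments a sample. The groups did not overlap, and the difference was 0.62 ± 0.16 (SE) on the log2 scale, with an adjusted p of 0.127 by limma. In the nucleotide excision repair genes Ddb2, Xpc and Ercc5 the groups overlapped. Ddb2 and Xpc, which recognise damaged bases, averaged 4.18 ± 0.790 and 4.02 ± 0.250 FPKM in the controls and 3.68 ± 0.499 and 4.35 ± 0.411 FPKM after I13 (SD, n = 3 each), with intervals from -0.58 to 0.23 and from -0.17 to 0.39 on the log2 scale. Ercc5, the endonuclease that cuts 3′ of the lesion, had a log2 fold change of 0.17 (interval from -0.21 to 0.54).

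Ccng1 (ENSMUSG00000020326), which encodes cyclin G1, a p53 target that recruits a phosphatase to Mdm2, was the most abundant member and lay above 98.2% of the listed genes by mean FPKM. It was listed at 85.7, 107 and 98.2 FPKM in the controls and at 143, 160 and 117 FPKM after I13. All I13 samples were above all controls, with pair differences of 0.73, 0.58 and 0.25 on the log2 scale. The mean of 0.52 ± 0.14 (SE), with an adjusted p of 0.138 by limma and of 0.0591 under the replicate block, was under the threshold of 0.58. Btg2, an antiproliferative cofactor of mRNA deadenylation, was listed at 3.70, 1.80 and 4.70 FPKM in the controls and at 5.15, 5.59 and 7.39 FPKM after I13. The groups did not overlap, but control replicate 2 was low, and the log2 difference of 0.90 ± 0.34 (SE), with an adjusted p of 0.221 by limma, was 0.51 without that sample.

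Zmat3, an RNA-binding protein of splicing, was listed at 7.34, 7.48 and 9.87 FPKM in the controls and at 10.004, 11.6 and 9.65 FPKM after I13. Here the groups overlapped, and the log2 fold change of 0.34 had an unadjusted p of 0.0474 and an adjusted p of 0.263 from limma. Ptp4a3, a phosphatase, ranged widely in both groups, from 32.8 to 56.3 FPKM in the controls and from 39.1 to 59.5 FPKM after I13, and was higher in all 3 pairs with a log2 fold change of 0.34 (standard error 0.24). Phlda3, which competes with Akt for membrane lipids, averaged 5.01 ± 1.19 and 5.56 ± 0.424 FPKM (SD, n = 3 each). Psrc1, a microtubule-associated protein of the mitotic spindle, averaged 14.5 ± 2.41 and 11.5 ± 1.80 FPKM (SD, n = 3 each) and was lower in all 3 pairs, with a log2 fold change of -0.33 (adjusted p = 0.333 from limma).

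**Figure D3:**
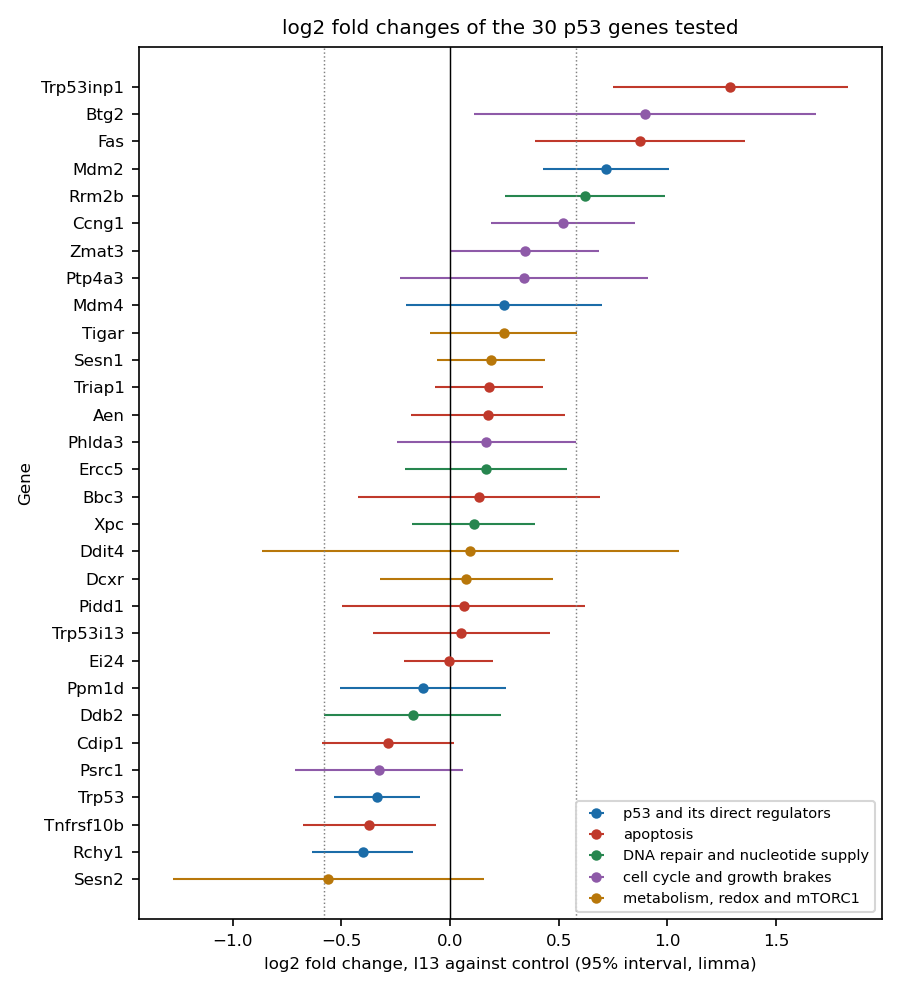
The log2 fold change of I13 against control from limma is plotted for each of the 30 members with its 95% interval, coloured by role and sorted by value, with dotted lines at the threshold of 0.58 in either direction. The intervals of 10 members exclude 0, 7 on the higher and 3 on the lower side, and those of Ddit4 and Sesn2 are the widest besides that of Btg2.

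By limma without the block, no member of metabolism, redox balance and mTORC1 signalling had an unadjusted p below 0.05. By voom with the block, Sesn2 had an unadjusted p of 0.0465 and an adjusted p of 0.155. Sesn1 and Sesn2 encode sestrins, which restrain mTORC1, and Ddit4 encodes REDD1, which does so as well. Sesn1 was listed at 7.67, 8.92 and 9.33 FPKM in the controls and at 9.65, 9.86 and 9.96 FPKM after I13, without overlap, with a log2 fold change of 0.19 (interval from -0.06 to 0.44). Sesn2 was listed at 63.5, 32.0 and 27.6 FPKM in the controls and at 22.3, 25.0 and 31.3 FPKM after I13. Control replicate 1 was the highest of all samples, and the log2 fold change of -0.56 was -0.20 without it. Ddit4 was listed at 31.0, 12.6 and 12.9 FPKM in the controls and at 12.2, 18.7 and 26.9 FPKM after I13. The same control sample was high, and the log2 fold change of 0.09 was 0.52 without it. Tigar, which limits glycolysis, averaged 2.10 ± 0.197 and 2.51 ± 0.186 FPKM (SD, n = 3 each), higher in all 3 pairs with a log2 fold change of 0.25 (interval from -0.09 to 0.59). Dcxr, a carbonyl reductase, had a log2 fold change of 0.08.

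The members were read beside 3 further lists of the pathway, written by hand with earlier results of these data known. Of 44 other p53 targets, 33 were tested and 24 had a positive log2 fold change, against 49.2% of all genes tested, with a median of 0.20. At an unadjusted p below 0.05, 6 were higher, against 7.79% of all genes tested, and 1, Ptprv, was lower, against 10.8%. None was called by limma without the block. Cdkn1a and Bax, the best-known targets, did not reach an unadjusted p of 0.05 by limma without the block. By voom with the block, the unadjusted p was 0.0389 for Cdkn1a (adjusted p = 0.139) and 0.812 for Bax. Cdkn1a, the cell cycle inhibitor p21, was abundant and was listed at 136, 97.5 and 139 FPKM in the controls and at 130, 131 and 182 FPKM after I13, with overlapping groups and a log2 fold change of 0.25 (interval from -0.19 to 0.69). Bax, the pore-forming apoptosis effector, averaged 24.3 ± 2.42 and 24.7 ± 1.28 FPKM (SD, n = 3 each), with an interval from -0.22 to 0.26. With the replicate block, Ier5, an immediate early gene, Lif, a cytokine, and Ak1, an adenylate kinase, rose with adjusted p-values of 0.0384, 0.0392 and 0.0472 from limma and log2 fold changes of 0.70, 0.94 and 0.72. Without the block their adjusted p-values were 0.165, 0.236 and 0.116. By voom with the block, 8 of the 33 had an adjusted p below 0.05, all with higher values after I13. In that fit 804 of all 12163 genes tested were higher with an adjusted p below 0.05. Lif varied widely after I13, with 24.5, 19.4 and 48 FPKM against 15.8, 10.1 and 19.9 FPKM in the controls, so that its groups overlapped.

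Of 29 upstream regulators and cofactors of p53, 25 were tested, with a median log2 fold change of -0.01. At an unadjusted p below 0.05, 2 were higher, against 7.79% of all genes tested, and 4 were lower, against 10.8%. Cdkn2a, whose product p19Arf blocks Mdm2, was listed at 6.79, 2.27 and 6.63 FPKM in the controls and at 11.2, 10.8 and 14.7 FPKM after I13. The groups did not overlap, and differed by 1.35 ± 0.40 (SE) on the log2 scale, with an adjusted p of 0.159 by limma and of 0.0618 under the replicate block. Control replicate 2 was low, with 47 fragments against 141 and 137 in control replicates 1 and 3. The 3 pairs differed by 0.72, 2.20 and 1.13 on the log2 scale. The gene also encodes p16Ink4a, and the table holds 1 value for both transcripts. Trim28, a corepressor that works with Mdm2, was listed at 115, 135 and 118 FPKM in the controls and at 88.5, 96.4 and 89.6 FPKM after I13. With the replicate block it fell with a log2 fold change of -0.42 and an adjusted p of 0.044 from limma, against 0.113 without the block. By voom with the block, 4 of the 25 had an adjusted p below 0.05, against 12.4% of all genes tested. Of these, Cdkn2a and Hipk2 were higher and Kat5 and Trim28 lower after I13. The damage kinases Atm, Atr, Chek1 and Chek2 had overlapping groups.

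The third list holds 25 cell cycle genes that p53 lowers indirectly, through p21 and the DREAM repressor complex. All were tested, and 19 had a negative log2 fold change, against 6174 of all 12163 genes tested, with a median of -0.10. At an unadjusted p below 0.05, 6 were lower, against 10.8% of all genes tested, namely Plk1, Foxm1, Aurka, Aurkb, Mcm5 and Kif2c. At that p 1 gene, Ccne2, was higher, against 7.79%. None of the 25 had an adjusted p below 0.05 by limma, with or without the block. By voom with the block, the same 6 lower genes had adjusted p-values from 0.0179 for Plk1 to 0.0498 for Aurkb. In that fit 703 of all 12163 genes tested were lower with an adjusted p below 0.05. The mitotic kinase Plk1 averaged 83.6 ± 10.8 and 62.9 ± 2.84 FPKM (SD, n = 3 each), which is -0.40 on the log2 scale, with an adjusted p of 0.151 by limma. Ccnb1 and Cdk1, the core of the mitotic cyclin-dependent kinase, had overlapping groups.

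**Figure D4:**
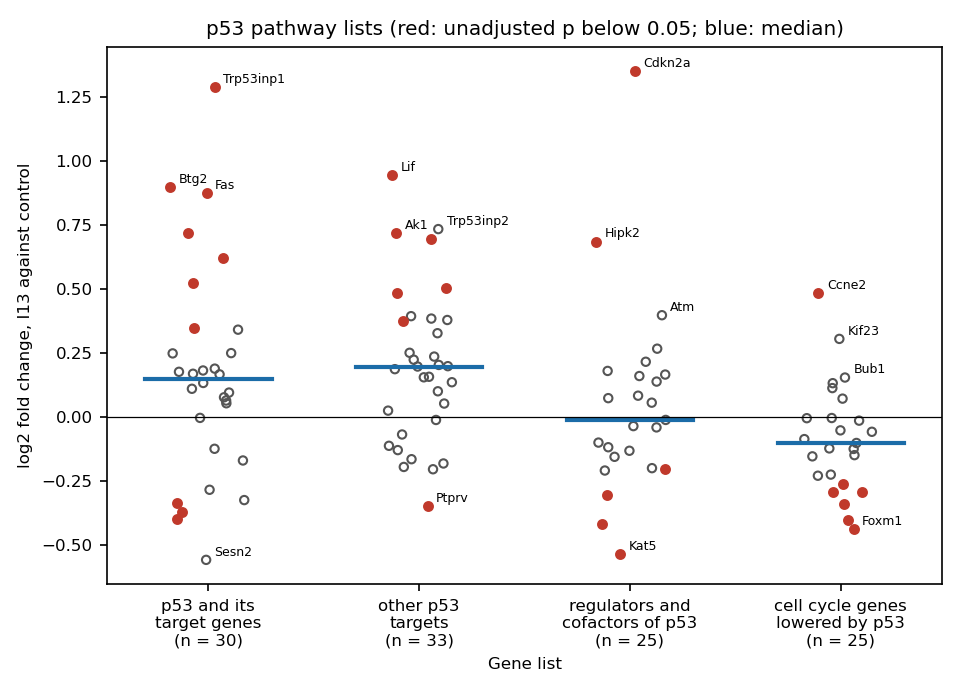
Each point is the log2 fold change of 1 gene, I13 against control, in the 30 members and the 3 further lists, filled red at an unadjusted p below 0.05, with a blue line at each list's median. The medians are 0.15, 0.20, -0.01 and -0.10, and every list spans 0.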

How the data were processed

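RNA of 3 control and 3 I13-treated samples was made into stranded mRNA libraries. The authors deposited FPKM per mouse Ensembl gene, without pooling replicates, and no scaling between samples was stated. Per the labels, Trimmomatic, HISAT2, Cufflinks and HTSeq were used, with no versions or roles, and the build is named as hg38, which is a human build although the identifiers are of mouse. No mouse genome or annotation was used here, so no coordinates or sequences are given. There were 0 columns of values without a sample.

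Groups and replicate numbers were taken from the labels. Whole fragments, a gene length and the library totals were recovered from the FPKM within a tolerance of 0.01 fragments for all 22413 genes, although for genes with few fragments the solution may not be unique. The main test was 2-sided, with eBayes and a trend in limma (version 3.58.1, R 4.3.3), for genes averaging 0.5 FPKM or more, after adding a pseudocount of 0.1 and taking log2, with Benjamini-Hochberg adjustment over all genes tested, with the thresholds of the paper. Intervals are 95% from limma. The scripts were tested on simulated data.

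Deviations of same-numbered samples from their group means correlated across genes at 0.15, 0.30 and 0.22 for replicates 1, 2 and 3, each above 0.1. On that basis a number was read as marking a pair, though no source states a shared batch. Differently numbered samples gave -0.26 to 0.05. Deviations from a group mean cancel within the group, so these lower values are not separate evidence of pairing.

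Alternatives were other pseudocounts (1 and 0.01), no filter, median-ratio scaling, the replicate block, voom, and leaving out each sample. The members and lists, and the rule for named genes, were chosen with earlier results of these data known. Named are all members, with full values for those with an unadjusted p below 0.05 or an adjusted p below 0.05 with the block, and for Trp53, Mdm2, Mdm4 and the extremes, plus listed genes with an adjusted p below 0.05 in either fit, and Cdkn1a, Bax and Cdkn2a. Other listed genes named were chosen after their values were seen. Python 3.11.15 and matplotlib 3.10.9 drew the figures.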

Additional observations from a re-analysis of the deposited data

How the results depend on the processing

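The depth of 16762119 to 17722950 fragments a library gave each tested member 77 to 9446 fragments a sample, and with 3 samples a group the spread between samples limits the calls. The number of all genes called was 5, and it was 2 with a pseudocount of 0.01 or median-ratio scaling, 8 without a filter, 230 with the replicate block and 503 with voom and the block. No member was called, against 2 under the block and 5 in the blocked voom fit, in which 6 members were lower at an unadjusted p below 0.05 instead of 3. Of all genes tested, 15.4% were lower at that p in the blocked voom fit, instead of 10.8%. With 1 sample left out, 0 to 0 of all genes and 0 members were called, 1478 to 2482 genes had an unadjusted p below 0.05, and 5 to 9 members were higher and 3 to 4 lower at that p. In the blocked fits without 1 pair, an alternative chosen after seeing the data, 83, 0 and 0 genes and 1, 0 and 0 members were called without replicates 1, 2 and 3, with 9, 6 and 11 members higher and 3, 1 and 4 lower at an unadjusted p below 0.05. Of all genes tested, 10.1%, 6.56% and 14.0% were higher and 11.8%, 6.91% and 12.0% lower at that p in these fits. The fits without a sample or a pair held fewer samples, and the cause of their changed calls was not tested. In limma the block changed the calls of Mdm2 and Fas and of no other member. Voom without the block called 0 members, so in that fit the block changed the calls of Mdm2, Fas, Trp53inp1, Rrm2b and Btg2.

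Of the 30 members, 21 kept the sign of their log2 fold change in all settings. The others, none of them called, turned it in at least 1. With 1 sample left out, the log2 fold change ran from -0.249 to 0.0212 for Ppm1d, -0.0433 to 0.422 for Bbc3, -0.146 to 0.215 for Pidd1, -0.0374 to 0.0356 for Ei24, -0.130 to 0.169 for Trp53i13, -0.183 to 0.519 for Ddit4 and -0.0433 to 0.216 for Dcxr. Ei24 was at 0.00743 with median-ratio scaling. In the blocked fits without 1 pair, the turned values were -0.0332 for Bbc3, 0.00304 for Ei24, -0.131 for Trp53i13, 0.0731 for Ddb2, -0.388 for Ddit4 and -0.00915 for Dcxr without replicate 3, -0.0605 for Pidd1, -0.141 for Ddit4 and -0.101 for Dcxr without replicate 2, and -0.0833 for Pidd1 and -0.0146 for Xpc without replicate 1. The cause of these turns was not tested.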

Other observations

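Sesn2 and Ddit4 are also known targets of the stress factor Atf4, so further genes of that response were read, a choice made after the values were seen. In the controls, in replicate order, Atf4 had 377, 238 and 167 FPKM, and after I13 it had 125, 222 and 252 FPKM. Trib3, a pseudokinase that Atf4 induces, was listed at 57.3, 24.4 and 24.0 FPKM in the controls and at 6.38, 25.6 and 34.2 FPKM after I13. Asns, asparagine synthetase, was listed at 144, 123 and 75.5 FPKM in the controls and at 45.5, 93.1 and 93.3 FPKM after I13. In Atf4, Trib3, Asns, Sesn2 and Ddit4 control replicate 1 was the highest sample and I13 replicate 1 the lowest. Ddit3, which encodes Chop, ranged from 6.99 to 10.2 FPKM in the controls and from 5.30 to 11 FPKM after I13. The part of this difference between libraries in the values of Sesn2 and Ddit4 was not tested.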
